A study of Homo sapiens with 12 samples.

Results

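The 44 genes described here code for the ligands, receptors, antagonists, SMAD transcription factors and ID proteins of the TGF-beta and BMP pathways. They were chosen by symbol from a list and make up 44 of the 31681 rows of a gene expression table, and all 44 were found. The table holds 12 RNA-seq libraries, 3 from each of 4 cultured lines of human glioblastoma. U251TR and U87TR are temozolomide-resistant lines that the submitters raised from U251MG and U87MG by repeated exposure to the alkylating drug temozolomide at increasing concentrations. U251MG and U87MG are the long-established parental lines, and all 4 lines were cultured in DMEM with fetal bovine serum. The table holds only 1 resistant line from each parent. The labels do not say whether either is a clone or whether the drug was present when RNA was taken. Changes due to resistance and other changes that arose while a line was derived therefore cannot be told apart. The library codes of U87TR also belong to a different numbering block, so in U87 the code block and resistance cannot be told apart.

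TGF-beta is secreted in a latent complex that LTBP proteins hold in the extracellular matrix. Once released, TGF-beta and the activins signal through receptor kinases to SMAD2 and SMAD3, while the bone morphogenetic proteins (BMPs) signal to SMAD1, SMAD5 and SMAD9. SMAD4 is the partner of both branches, SMAD6 and SMAD7 inhibit them, and the ID genes are direct targets of BMP signalling. In glioblastoma, TGF-beta is known for supporting invasion, immune suppression and stem-like cells, and BMPs for driving stem-like cells towards an astrocytic fate.

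The values are FPKM (fragments per kilobase of transcript, scaled to sequencing depth), a unit that was inferred and not stated. They adjust for transcript length, so levels can be compared between genes. The deposited table holds no counts, so the depth behind a value is unknown. The libraries had 13135 to 14122 genes at 1 FPKM or more. Changes were tested with limma on log2(FPKM + 1) over the 15449 genes with 1 FPKM or more in at least 3 libraries, and an adjusted p (Benjamini-Hochberg) under 0.05 counted as passing. Of the 44 genes 41 were tested. ACVRL1, INHBA and INHBB stayed below 1 FPKM in every library, and ID4 and SMAD9 entered the test only through the resistant lines, where alone they reached 1 FPKM. The added 1 FPKM shrinks fold changes of weakly expressed genes. Nothing in the labels says that the 3 libraries of a line are separate cultures, and the spread behind each p-value may be technical. U251MG replicate 2 was unlike replicates 1 and 3 (rank correlations of 0.977 and 0.978, against 0.993 between those 2), and values without it are given where they matter. Among 9 astrocyte and glioma markers, summed levels were 1837 to 1939 FPKM in U251TR, 2166 to 3499 in U251MG, 4404 to 4763 in U87TR and 5530 to 6529 in U87MG. In U251 these markers did not move together: GFAP averaged 396.2 FPKM in U251TR and 22.8 in U251MG, while VIM averaged 817 in U251TR and 1702 in U251MG and NES 42.6 in U251TR and 195.6 in U251MG. The VIM values in U251MG were 1298, 2474 and 1334 FPKM in replicates 1 to 3, and replicate 2 set the upper end of the U251MG sum. AQP4 was listed at 0 in U251MG, U87TR and U87MG, and S100B and SOX2 were listed at 0 in U87MG. Most of the U87 sums was VIM and CD44, at 4917 and 1045 FPKM on average in U87MG and 4051 and 507 in U87TR. GFAP (0.753 FPKM), NES (7.79), SOX9 (10.4), OLIG2, S100B and SOX2 averaged lower in U87MG than in U251MG, and VIM and CD44 higher. Of 3 tested epithelial markers all were lower in U251TR and all higher in U87TR, with summed levels of 67.1 to 73.5 FPKM in U251TR, 95.4 to 124.5 in U251MG, 38.5 to 41.1 in U87TR and 12.2 to 20.5 in U87MG. Both tested endothelial markers were higher in U251TR (list sums of 17.8 to 18.6 FPKM in U251TR and 9.5 to 10.5 in U251MG), as were 2 of 3 mitosis genes (407.8 to 494.2 in U251TR and 214.5 to 333.3 in U251MG). Of 6 tested fibroblast markers 1 was lower in U251TR (261.8 to 299.8 in U251TR and 662.1 to 1127 in U251MG, the upper end from replicate 2). CD68, the tested blood and microglia marker, was higher in both resistant lines.

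In U251TR, 15 of the 41 tested pathway genes rose and 7 fell against U251MG (53.7%), where 53.2% of all genes tested passed, 33.6% being higher and 19.6% lower. In U87TR, 8 rose and 11 fell against U87MG (46.3%), where 27.8% of all genes passed, 10.6% higher and 17.2% lower. A change of at least 2-fold was passed by 10 of the 41 in U251TR (13.6% of all genes) and by 4 in U87TR (5.19% of all genes). The libraries of the 2 lines did not overlap for 22 of the 41 in U251TR (58.9% of all genes) and for 23 in U87TR (46.6% of all genes). The median log2 fold change of the 41 was 0.00 in U251TR and -0.04 in U87TR, against 0.10 and -0.05 over all genes tested. Their median absolute log2 fold change was 0.56 in U251TR and 0.35 in U87TR, against 0.37 and 0.22 over all genes. Changes went both ways in each line, and few were shared. TGFB3, BMP6, SMAD9 and ID4 rose in both lines (4 genes, where 4.6% of all genes rose in both). Of these, SMAD9 and ID4 entered the test only through the resistant lines, where they were high. By limma 0 of the 41 fell in both, where 4.05% of all genes did. SMAD2 was lower in both at an unadjusted p under 0.05 (1 gene), SMAD2 and SMAD5 fell in both after median-of-ratios scaling, and SMAD2 and SMAD4 after quantile normalization. LTBP1, BMP1, SMAD3, SMAD7 and ID3 passed in opposite directions (5 genes, where 6.95% of all genes did so). The 9 genes that passed in neither line were BMP7, INHBE, TGFBR2, ACVR1, ACVR2A, ACVR2B, BMPR1A, SMAD1 and SKIL. After median-of-ratios scaling, where the median change of all genes in U251TR was 0, 14 of the 41 rose and 11 fell in U251TR.

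**Figure D1:**
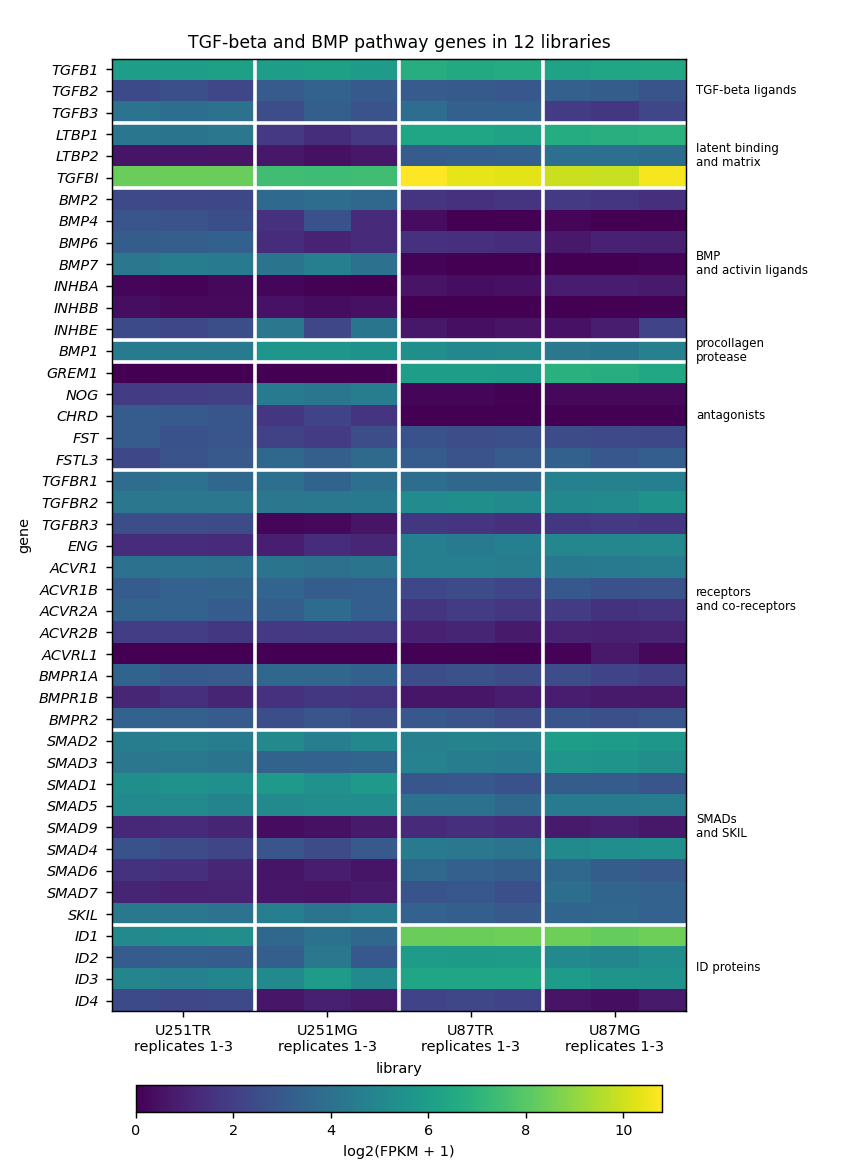
Level of each of the 44 genes in each of the 12 libraries, as log2(FPKM + 1), with genes ordered by role down the page and libraries grouped by line across it. The rows of GREM1, ID1 and BMP7 set the U251 and the U87 libraries apart, with GREM1 at 63.5 FPKM on average in U87TR and listed at 0 in U251TR.

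**Figure D2:**
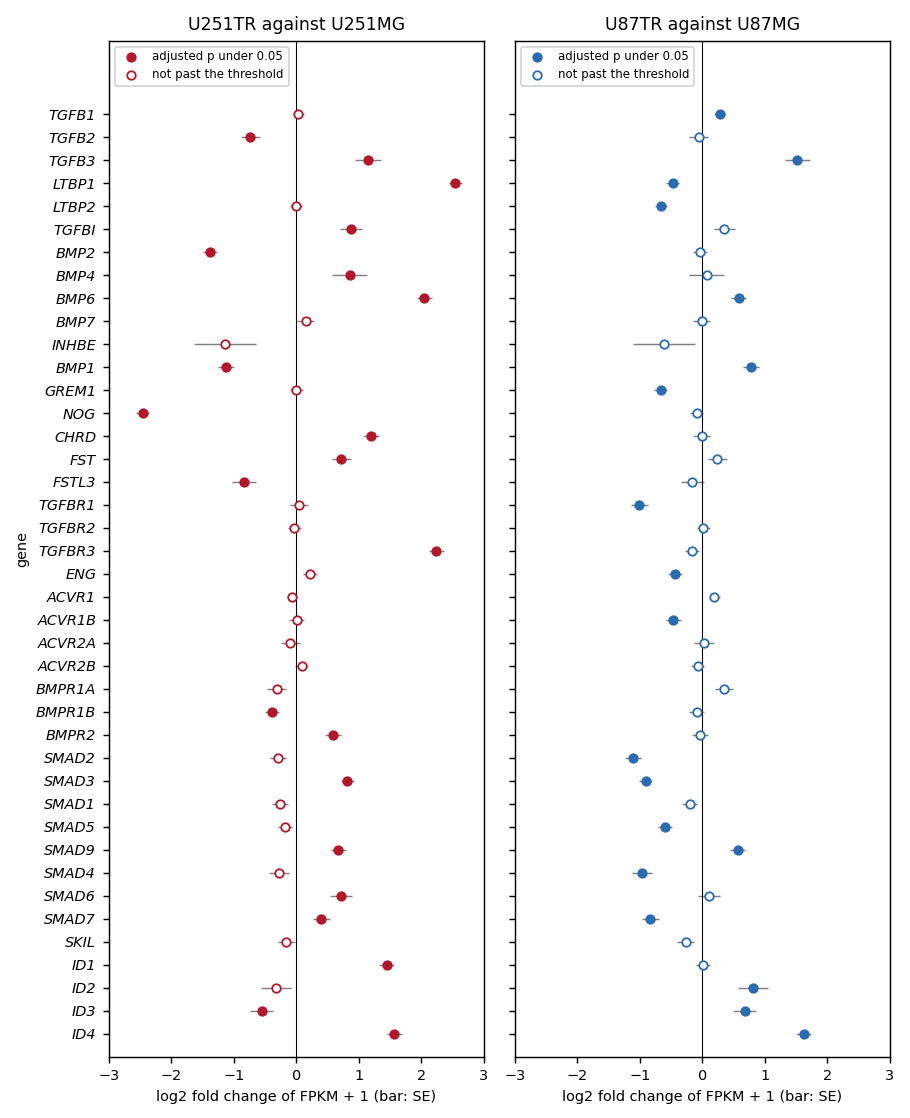
Log2 fold change of each tested gene in U251TR against U251MG and in U87TR against U87MG, from limma on log2(FPKM + 1), with bars of 1 SE. LTBP1 (2.54) and TGFBR3 (2.24) stand at the upper end and NOG (-2.46) at the lower end in U251TR, while the U87TR values lie between -1.11 for SMAD2 and 1.62 for ID4.

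Among the 3 TGF-beta ligands, TGFB3 rose in both resistant lines while TGFB1 rose slightly in U87TR and TGFB2 fell in U251TR. TGFB3 had 16.21, 14.01 and 15.25 FPKM in the U251TR libraries, against 4.93, 8.69 and 5.73 in U251MG. In U87 it had 13.5, 8.98 and 9.15 FPKM in U87TR, against 2.77, 2.36 and 3.9 in U87MG. Every resistant library lay above every library of its parent, in both lines. The log2 fold change was 1.15 in U251TR (SE 0.20, adjusted p = 0.000491) and 1.52 in U87TR (SE 0.20, adjusted p = 0.000162), and the difference between them did not pass (adjusted p = 0.307).

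TGFB1, the most abundant of these ligands in all 4 lines, had 65.23, 63.27 and 70.28 FPKM in U251TR, against 63.39, 70.34 and 61.46 in U251MG. These values overlapped (log2 fold change 0.03, adjusted p = 0.825). In U87TR it had 105.86, 92.68 and 98.06 FPKM, against 73.98, 81.22 and 88.53 in U87MG, with no overlap. The rise was 0.28 on the log2 scale (SE 0.09, adjusted p = 0.0319), and it was lost when any 1 of 4 U87 libraries (U87MG replicates 1 and 2, U87TR replicates 1 and 3) was left out (adjusted p 0.0722 to 0.127). TGFB1 shares exon sequence with HNRNPUL1 on the opposite strand, at 104.5 FPKM in U87TR and 137.1 in U87MG, and the strand setting of the counting is not stated. TGFB2 had 4.31, 5.3 and 3.88 FPKM in U251TR, against 7.49, 9.62 and 7.41 in U251MG, a fall of every library (log2 fold change -0.74, SE 0.15, adjusted p = 0.00138). In U87 the TGFB2 libraries overlapped, at 7.62, 7.4 and 6.74 FPKM in U87TR against 8.91, 8.2 and 5.93 in U87MG.

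LTBP1 moved in opposite directions in the 2 resistant lines. This gene, whose protein tethers the latent complex to the matrix, had 17.69, 16.81 and 18.31 FPKM in U251TR, against 2.5, 1.68 and 2.48 in U251MG. In U87 it had 79.98, 81.78 and 74.22 FPKM in U87TR, against 102.55, 108.55 and 118.44 in U87MG. The groups were separate in both lines. LTBP1 rose in U251TR (log2 fold change 2.54, SE 0.11, adjusted p = 3.68e-09), and it fell in U87TR (log2 fold change -0.48, SE 0.11, adjusted p = 0.00604). Among the 41 tested genes its rise in U251TR was the largest with 1 FPKM added, whereas with 0.1 FPKM added that of TGFBR3 was larger (3.92, against 2.95 for LTBP1). LTBP2, a microfibril protein of the same family, was low in U251, at 0.52 ± 0.026 FPKM in U251TR and 0.533 ± 0.124 in U251MG (SD, n = 3 each). In U87TR it averaged 8.45 ± 0.48 FPKM, against 13.9 ± 0.8 in U87MG (SD, n = 3 each), a fall of 0.66 on the log2 scale (adjusted p = 0.000386).
TGFBI, a secreted matrix protein that TGF-beta induces, was the most abundant of the 44 genes in each line. It averaged 324 ± 6.8 FPKM in U251TR, against 176.3 ± 2.5 in U251MG (SD, n = 3 each), a log2 fold change of 0.87 with an SE of 0.17 (adjusted p = 0.00107). In U87 its libraries overlapped, at 1780, 1352 and 1293 FPKM in U87TR against 972.5, 960.8 and 1600 in U87MG, where replicate 3 was the high one (log2 fold change 0.35, adjusted p = 0.155). Without that library the groups did not overlap, and the log2 fold change was 0.59 (adjusted p = 0.00306).

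Among the BMP ligands, BMP6 rose in both resistant lines and BMP2 fell in U251TR. BMP6 had 8.17, 8.69 and 9.25 FPKM in U251TR, against 1.55, 1.04 and 1.47 in U251MG. The U87TR libraries had 1.87, 1.84 and 1.64 FPKM of BMP6, against 0.67, 0.97 and 0.95 in U87MG. All resistant libraries were above their parent's, by a log2 fold change of 2.05 in U251TR with an SE of 0.12 (adjusted p = 4.3e-08) and of 0.58 in U87TR (SE 0.12, adjusted p = 0.00294). The rise was larger in U251TR (difference 1.47, SE 0.16, adjusted p = 2.13e-05). BMP6 shares exon sequence with TXNDC5 on the opposite strand, which had lower means in both resistant lines, at 85.9 FPKM in U251TR against 100.8 in U251MG, and at 71.7 in U87TR against 95.3 in U87MG. BMP2 had 4.15, 3.98 and 4.14 FPKM in U251TR, against 12.01, 13.43 and 11.56 in U251MG, a log2 fold change of -1.39 with an SE of 0.11 (adjusted p = 1.08e-06). In U87 it was near 2 FPKM and overlapped, at 2.09 ± 0.14 in U87TR and 2.19 ± 0.45 in U87MG (SD, n = 3 each).

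BMP4 and BMP7 were present in U251 and at or near 0 in U87. BMP4 had 6.16, 5.77 and 4.98 FPKM in U251TR, against 1.95, 5.66 and 1.5 in U251MG. U251MG replicate 2 lay inside the U251TR range, and the log2 fold change of 0.85 with an SE of 0.28 (adjusted p = 0.0226) was 1.29 without it (adjusted p = 1.54e-05). The call was lost in 8 other settings, among them leaving out U251MG replicate 1 or 3 or U251TR replicate 1 or 2 (adjusted p 0.0567 to 0.101). BMP7 averaged 20.8 ± 2.1 FPKM in U251TR and 19 ± 4.4 in U251MG (SD, n = 3 each, adjusted p = 0.411), and its log2 fold change of 0.15 was 0.32 without U251MG replicate 2 (adjusted p = 0.023). INHBE, a subunit of the activins, had 4.39, 4.03 and 5 FPKM in U251TR, against 18.28, 3.97 and 17.45 in U251MG, and the low U251MG value was that of replicate 2. It did not pass (log2 fold change -1.15, adjusted p = 0.0695), but without that library it stood at -1.79 (adjusted p = 0.00179). INHBA and INHBB, the other activin subunits in the list, were at most 0.8 and 0.43 FPKM in any library.

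BMP1 is not a BMP ligand but a protease that trims procollagen and cleaves the antagonist chordin. It had 21.41, 21.84 and 20.83 FPKM in U251TR, against 50.31, 48 and 45.39 in U251MG. In U87TR it had 40.84, 32.36 and 32.77 FPKM, against 18.53, 17.4 and 24.92 in U87MG. The libraries did not overlap in either line, and the directions were opposite. The log2 fold change was -1.13 in U251TR (SE 0.13, adjusted p = 1.41e-05) and 0.78 in U87TR (SE 0.13, adjusted p = 0.000735), a difference of -1.91 (SE 0.18, adjusted p = 5.51e-06). The 20 tested genes nearest to BMP1 on chromosome 8, 10 on each side, had a median log2 fold change of -0.55 in U251TR (11 lower and 2 higher) and of -0.04 in U87TR.

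The secreted antagonists differed by line. NOG (noggin), which binds BMPs and blocks their receptors, was the gene with the largest fall among the 41 in U251TR. It had 2.73, 2.89 and 3.09 FPKM there, against 21.34, 18.14 and 22.05 in U251MG, a log2 fold change of -2.46 with an SE of 0.10 (adjusted p = 3.31e-09). In U87 it was below 0.2 FPKM in every library. CHRD (chordin), which also traps BMPs, moved the other way in U251TR, with 7.74, 7.22 and 6.43 FPKM against 2.23, 3.45 and 2.13 in U251MG. Its change was 1.19 on the log2 scale (SE 0.13, adjusted p = 1.23e-05), and in U87 it was listed at 0 in all U87TR libraries and reached 0.02 FPKM in 1 U87MG library.

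GREM1 (gremlin 1), another BMP antagonist, was a U87 gene. It had 63.87, 66.11 and 60.44 FPKM in U87TR, against 113.37, 105.85 and 86.23 in U87MG, a log2 fold change of -0.66 with an SE of 0.10 (adjusted p = 0.000502). In U251 it was listed at 0 in all U251TR libraries and at 0.01 FPKM in 1 U251MG library. FST (follistatin), which binds activins, averaged 6.53 ± 1.16 FPKM in U251TR against 3.62 ± 1.04 in U251MG (SD, n = 3 each) and rose (log2 fold change 0.72, adjusted p = 0.00191). FSTL3, a related activin binder, fell, at 5.71 ± 1.53 FPKM in U251TR against 10.9 ± 1.9 in U251MG (log2 fold change -0.84, adjusted p = 0.00286). The 20 tested neighbours of FSTL3 on chromosome 19 had a median of -0.56 in U251TR, with 15 lower. In U87TR neither FST nor FSTL3 passed (adjusted p = 0.277 and 0.599).

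**Figure D3:**
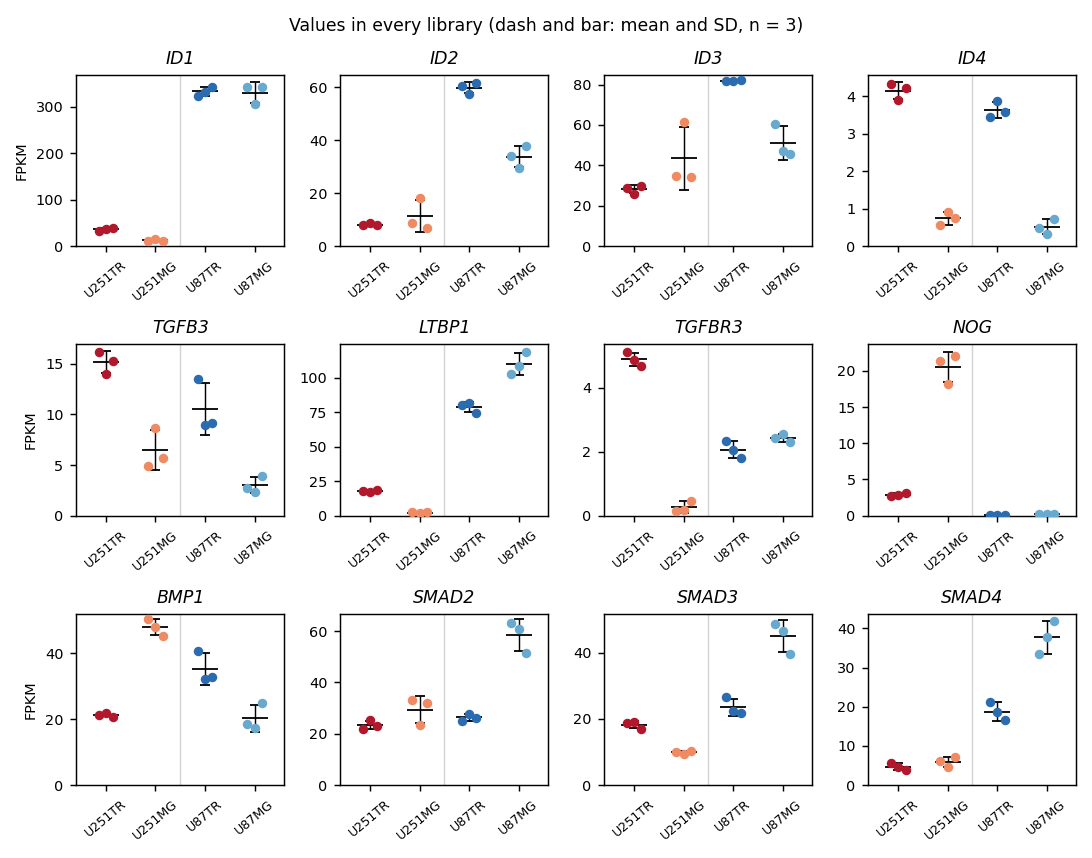
FPKM of 12 of the genes in each library, on linear axes that start at 0, with each resistant line left of its parent and a dash and bar for the mean and SD (n = 3). TGFB3 and ID4 are higher in both resistant lines, LTBP1, TGFBR3 and ID1 in U251TR, and SMAD2, SMAD3 and SMAD4 are lower in U87TR.

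In each resistant line 8 of 11 tested receptor and co-receptor genes did not pass, while 2 rose and 1 fell in U251TR and 3 fell in U87TR. The share that passed was 27.3% in each line, where 53.2% of all genes passed in U251TR and 27.8% in U87TR. TGFBR1, the signalling type I receptor of TGF-beta, had 13.7, 15.19 and 11.28 FPKM in U251TR, against 14.78, 10.09 and 14.38 in U251MG, and these overlapped (log2 fold change 0.04, adjusted p = 0.842). In U87TR it had 13.74, 11.63 and 11.51 FPKM, against 26.21, 26.09 and 24.51 in U87MG, with no overlap. The fall (log2 fold change -1.0, SE 0.14, adjusted p = 0.000271) differed from the change in U251TR (difference 1.04, SE 0.20, adjusted p = 0.00122). TGFBR2, the type II receptor that binds the ligand first, had 18.48, 18.2 and 18.67 FPKM in U251TR, against 18.3, 19.03 and 19.49 in U251MG. In U87TR it had 36.44, 40.24 and 35.05 FPKM, against 32.19, 34.89 and 43.97 in U87MG. It overlapped in both lines (log2 fold change -0.04, SE 0.10, and 0.02, SE 0.10).

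TGFBR3 (betaglycan), a co-receptor that presents TGF-beta to the signalling receptors, is described because of its values, since it lay just under the 5 FPKM asked of genes to be given in full. It had 5.11, 4.85 and 4.69 FPKM in U251TR, against 0.14, 0.16 and 0.47 in U251MG, a log2 fold change of 2.24 with an SE of 0.12 (adjusted p = 2.35e-08). In U87 it overlapped, at 2.06 ± 0.27 FPKM in U87TR and 2.42 ± 0.12 in U87MG (SD, n = 3 each, adjusted p = 0.343). BMPR2, the type II receptor of BMPs, averaged 8.62 ± 0.96 FPKM in U251TR against 5.41 ± 0.68 in U251MG (SD, n = 3 each) and rose (log2 fold change 0.59, adjusted p = 0.00248). BMPR1B, a type I BMP receptor, fell at a low level, with 1.4 ± 0.34 FPKM in U251TR against 2.13 ± 0.23 in U251MG, and this call was lost without U251TR replicate 1 or 3 (adjusted p 0.0567 to 0.0598).

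In U87TR the other falls were those of ENG (endoglin), a co-receptor best known from endothelial cells, and of ACVR1B, the type I activin receptor. ENG averaged 23 ± 2 FPKM in U87TR against 31.5 ± 1.4 in U87MG (SD, n = 3 each, log2 fold change -0.44, adjusted p = 0.0151), and 1.57 ± 0.03 in U251TR against 1.23 ± 0.35 in U251MG. The U87TR call was lost without U87TR replicate 2 (adjusted p = 0.0706). Of 2 tested endothelial markers 1 fell in U87TR, and the summed level of that list was 0.58 to 0.59 FPKM in U87TR and 1.28 to 2.04 in U87MG. ACVR1B averaged 4.11 ± 0.33 FPKM in U87TR against 6.04 ± 0.66 in U87MG (log2 fold change -0.46, adjusted p = 0.0164), and that call was lost without U87MG replicate 1 or U87TR replicate 1 or 3 (adjusted p 0.0505 to 0.0691). ACVR1, ACVR2A, ACVR2B and BMPR1A, further receptors of activins and BMPs, passed in neither line, and ACVRL1 was at most 0.69 FPKM. BMPR1A, with 8.35 ± 1.46 FPKM in U251TR against 10.6 ± 1.1 in U251MG (log2 fold change -0.32, adjusted p = 0.0955), passed as lower after median-of-ratios scaling (-0.44) and quantile normalization (-0.49), and ACVR1 passed as higher in U87TR after quantile normalization (0.29).

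Most SMAD genes fell in U87TR. Of 9 tested genes (8 SMADs and the corepressor SKIL), 1 rose and 5 fell in U87TR (66.7%, where 27.8% of all genes passed, 10.6% higher and 17.2% lower). In U251TR 4 rose with the values as deposited (44.4%, where 33.6% of all genes rose), while SMAD1 (-0.40), SMAD2 (-0.43) and SMAD5 (-0.32) passed as lower after median-of-ratios scaling, and SMAD1 (-0.31), SMAD2 (-0.40) and SMAD4 (-0.52) after quantile normalization. SMAD2, a receptor-activated SMAD of the TGF-beta branch, had 24.96, 27.77 and 26.31 FPKM in U87TR, against 63.2, 60.68 and 51.34 in U87MG. The U87 groups were far apart, with a log2 fold change of -1.11 with an SE of 0.13 (adjusted p = 4.62e-05). In U251TR it had 22.04, 25.2 and 23.15 FPKM, against 33.25, 23.27 and 31.82 in U251MG. U251MG replicate 2 overlapped U251TR, and the log2 fold change of -0.30 (adjusted p = 0.0645) became -0.46 without it (adjusted p = 0.00166).

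SMAD3, the other SMAD of this branch, moved in opposite directions. It had 18.64, 19.17 and 17.02 FPKM in U251TR, against 9.99, 9.47 and 10.34 in U251MG. In the U87 lines it had 26.49, 22.49 and 21.74 FPKM in U87TR, against 48.8, 46.67 and 39.73 in U87MG. Both pairs of groups were separate, with log2 fold changes of 0.82 in U251TR (SE 0.10, adjusted p = 3.06e-05) and -0.91 in U87TR (SE 0.10, adjusted p = 3.72e-05). After these changes SMAD3 averaged 18.3 FPKM in U251TR and 23.6 in U87TR, where the parents had 9.93 in U251MG and 45.1 in U87MG.

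SMAD4, the common partner, had 21.21, 18.56 and 16.57 FPKM in U87TR, against 33.42, 37.87 and 41.78 in U87MG, with a log2 fold change of -0.97 with an SE of 0.16 (adjusted p = 0.000884). In U251 it was lower to begin with and overlapped, at 5.62, 4.56 and 3.83 FPKM in U251TR against 6.11, 4.51 and 7.2 in U251MG. The U251TR value of -0.28 (adjusted p = 0.16) was -0.44 without U251MG replicate 2 (adjusted p = 0.0243), and the difference between the lines (0.68, adjusted p = 0.0272) was lost in 9 settings, among them both scalings that centre the genes (adjusted p up to 0.318). SMAD7, an inhibitory SMAD, had 5.96, 6.53 and 5.17 FPKM in U87TR, against 14.12, 10.57 and 9.44 in U87MG, with no overlap (log2 fold change -0.83, SE 0.14, adjusted p = 0.000914). In U251TR it had 1.2, 1 and 1.09 FPKM, against 0.59, 0.47 and 0.71 in U251MG, also with no overlap (log2 fold change 0.40, SE 0.14, adjusted p = 0.0293). That U251TR call on a weakly expressed gene was lost in 8 settings, among them leaving out U251MG replicate 1 or 2 or U251TR replicate 1 or 3 (adjusted p 0.0623 to 0.0857).

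SMAD6, the other inhibitory SMAD, rose in U251TR, at 1.66 ± 0.37 FPKM against 0.61 ± 0.15 in U251MG (SD, n = 3 each, log2 fold change 0.72, adjusted p = 0.00391), and was 9.48 ± 1.77 in U87TR and 8.76 ± 2.07 in U87MG. SMAD9, the scarcest SMAD of the BMP branch, rose in both lines, with 1.32 ± 0.15 FPKM in U251TR against 0.467 ± 0.208 in U251MG and 1.57 ± 0.15 in U87TR against 0.733 ± 0.117 in U87MG. It reached 1 FPKM in the resistant lines alone and entered the test through them. SMAD5 fell in U87TR, at 14.1 ± 2.2 FPKM against 21.6 ± 0.4 in U87MG (log2 fold change -0.59, adjusted p = 0.00227). SMAD1 passed in neither line, at 42.6 ± 1.9 FPKM in U251TR against 51.6 ± 7.5 in U251MG and at 6.23 ± 0.50 in U87TR against 7.37 ± 1.1 in U87MG. Without U251MG replicate 2 its log2 fold change of -0.26 in U251TR became -0.39 (adjusted p = 0.00948). SKIL (SnoN), which represses SMAD targets, passed in neither line (adjusted p = 0.337 in U251TR and 0.166 in U87TR).

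SMAD2, SMAD7 and SMAD4 lie near each other on chromosome 18, and genes around them were also lower in U87TR. In RefSeq gene order (GRCh38.p14, used for order only), the 14 tested genes between SMAD2 and SMAD4 other than SMAD7 had a median log2 fold change of -0.75 in U87TR, with 9 lower and 2 higher. The 56 tested genes after SMAD4 had a median of -0.78, with 47 lower and 1 higher, and the 118 tested genes before SMAD2 had a median of -0.09, with 28 lower and 13 higher. In U251TR the same stretches had medians of 0.17, -0.10 and 0.02. Chromosome 18 had the lowest median of 23 chromosomes in U87TR (-0.26), with 45.5% of its 191 tested genes lower, where 17.2% of all genes were lower. Chromosome 11 was close to it in U87TR, with a median of -0.25 and 40.6% of its 734 tested genes lower. The stretches of chromosome 18 were drawn after the values were seen.
Around SMAD3, SMAD5 and TGFBR1, which also fell in U87TR, the neighbours' medians were near 0. The 20 nearest tested genes had a median log2 fold change there of 0.04 around SMAD3 on chromosome 15, 0.05 around SMAD5 on chromosome 5 and -0.07 around TGFBR1 on chromosome 9, against -0.78 around SMAD2 and SMAD7 and -0.71 around SMAD4. In U251TR the 20 neighbours of SMAD3 had a median of 0.47, with 13 higher and 1 lower. SMAD6 is also on chromosome 15 and had the same neighbour values, so the 2 are not separate observations. Around the other genes that rose in U251TR the neighbours' medians ran from -0.24 for SMAD9 to 0.42 for TGFB3, with 0.34 for BMPR2 and TGFBR3.

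**Figure D4:**
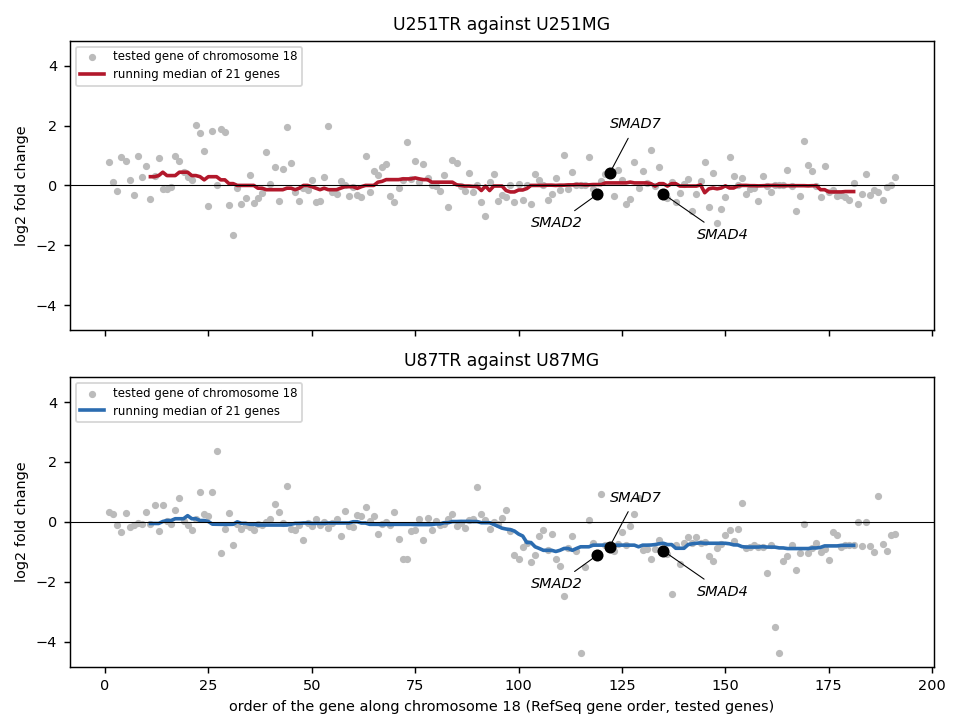
Log2 fold change of each tested gene of chromosome 18 in gene order, for U251TR against U251MG and U87TR against U87MG, with the running median of 21 genes and SMAD2, SMAD7 and SMAD4 marked. In U87TR the running median drops ahead of SMAD2 and stays below 0 to the end of the chromosome, where the 56 genes after SMAD4 have a median of -0.78.

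The ID genes, which code for inhibitors of basic helix-loop-helix transcription factors and are a common readout of BMP signalling, each had a pattern of their own. The 300 bases around the start of 4 ID genes and of SMAD6, another BMP target, are shown because these are known direct BMP targets whose levels differed among the lines. They run from 250 bases before to 50 bases after the start, 5′ to 3′ on the gene's strand, and come from RefSeq (GRCh38.p14), where 38 of the 44 genes were matched. ID1 is at chr20:31605039-31605338 (plus strand), ID2 at chr2:8681806-8682105 (plus), ID3 at chr1:23559452-23559751 (minus), ID4 at chr6:19837120-19837419 (plus) and SMAD6 at chr15:66701986-66702285 (plus). Capitals mark matches on either strand to the SMAD box CAGAC, which reads GTCTG when turned round, to the palindromic SMAD site GTCTAGAC and to the GC-rich element GGCGCC of BMP-responsive promoters.
ID1: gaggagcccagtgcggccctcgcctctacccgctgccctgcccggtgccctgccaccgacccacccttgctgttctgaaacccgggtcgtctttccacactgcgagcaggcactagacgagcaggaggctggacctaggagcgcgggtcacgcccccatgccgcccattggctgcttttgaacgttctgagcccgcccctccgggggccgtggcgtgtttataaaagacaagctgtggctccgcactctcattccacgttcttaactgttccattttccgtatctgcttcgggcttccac
ID2: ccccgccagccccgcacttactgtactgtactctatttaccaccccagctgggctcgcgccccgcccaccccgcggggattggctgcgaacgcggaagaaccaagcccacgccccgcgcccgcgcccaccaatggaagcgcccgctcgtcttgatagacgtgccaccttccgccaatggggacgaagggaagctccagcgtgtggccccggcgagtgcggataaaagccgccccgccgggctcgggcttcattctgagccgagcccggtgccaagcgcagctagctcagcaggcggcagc
ID3: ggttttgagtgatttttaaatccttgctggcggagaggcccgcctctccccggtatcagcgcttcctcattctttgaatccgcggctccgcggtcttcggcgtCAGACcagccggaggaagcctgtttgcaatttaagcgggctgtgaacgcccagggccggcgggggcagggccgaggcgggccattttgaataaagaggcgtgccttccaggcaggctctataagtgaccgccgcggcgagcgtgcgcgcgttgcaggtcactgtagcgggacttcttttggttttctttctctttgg
ID4: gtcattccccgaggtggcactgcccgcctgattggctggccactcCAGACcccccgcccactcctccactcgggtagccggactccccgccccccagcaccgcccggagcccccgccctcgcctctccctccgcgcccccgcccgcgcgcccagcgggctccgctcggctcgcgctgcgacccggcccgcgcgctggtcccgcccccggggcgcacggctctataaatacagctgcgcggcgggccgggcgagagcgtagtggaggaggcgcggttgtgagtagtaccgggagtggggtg
SMAD6: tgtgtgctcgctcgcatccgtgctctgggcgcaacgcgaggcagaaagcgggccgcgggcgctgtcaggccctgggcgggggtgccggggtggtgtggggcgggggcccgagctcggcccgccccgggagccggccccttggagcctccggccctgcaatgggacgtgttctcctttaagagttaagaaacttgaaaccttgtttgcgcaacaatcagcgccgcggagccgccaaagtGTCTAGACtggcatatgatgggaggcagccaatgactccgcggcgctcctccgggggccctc
ID3 and ID4 held 1 SMAD box each, SMAD6 held the palindrome, which overlaps no SMAD box, and ID1 and ID2 held none of the 3 in this window. Of 35116 RefSeq windows of this length, 45.3% held a SMAD box, 0.202% held the palindrome and 19.2% held GGCGCC. A match is a description of letters and not a site of binding, and enhancers farther away were not searched.

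ID1 rose in U251TR and was high in U87 with or without resistance. It had 32.6, 36.55 and 39.5 FPKM in U251TR, against 11.4, 15.76 and 11.12 in U251MG, with no overlap (log2 fold change 1.45, SE 0.12, adjusted p = 1.01e-06). In U87 it overlapped, at 323.04, 331.93 and 342.64 FPKM in U87TR against 342.27, 304.98 and 342.75 in U87MG (log2 fold change 0.01, SE 0.12, adjusted p = 0.966). The difference between the lines passed (1.43, SE 0.17, adjusted p = 2.88e-05).

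ID2 and ID3 rose in U87TR. ID2 had 60.56, 57.62 and 61.68 FPKM in U87TR, against 34, 29.71 and 37.89 in U87MG, with no overlap (log2 fold change 0.81, SE 0.24, adjusted p = 0.0277). In U251 it overlapped, at 7.84, 8.67 and 7.78 FPKM in U251TR against 8.78, 18.29 and 6.83 in U251MG, where replicate 2 was the high one. Its log2 fold change in U251TR was -0.33 (adjusted p = 0.286) and 0.05 without U251MG replicate 2 (adjusted p = 0.711). The U87TR call was lost when any U87 library other than U87MG replicate 3 was left out (adjusted p 0.0615 to 0.0995), although the log2 fold change stayed between 0.72 and 0.89 in all settings tried. The fit shares 1 estimate of a gene's spread across the 4 lines, and without U251MG replicate 2 the adjusted p of ID2 in U87TR was 0.000129.

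ID3 had 81.54, 81.53 and 82.16 FPKM in U87TR, against 60.57, 47.21 and 45.54 in U87MG, a rise of 0.68 on the log2 scale (SE 0.19, adjusted p = 0.0179). In U251TR it had 28.87, 25.94 and 29.79 FPKM, against 34.58, 61.52 and 34.44 in U251MG, a log2 fold change of -0.56 with an SE of 0.19 (adjusted p = 0.0247). The groups did not overlap in either line, and the difference between the changes passed (-1.24, SE 0.26, adjusted p = 0.0024). The U251TR fall was -0.28 without U251MG replicate 2 (adjusted p = 0.0422) and did not pass without U251TR replicate 1 or 2 (adjusted p 0.0508 to 0.0792). The U87TR rise did not pass without U87MG replicate 2 or 3 or U87TR replicate 3 (adjusted p 0.052 to 0.0669).

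ID4 was weakly expressed in both parents and rose in both resistant lines. It reached 1 FPKM in the resistant lines alone, so it entered the test through the lines where it was high. It had 4.34, 3.89 and 4.21 FPKM in U251TR, against 0.57, 0.92 and 0.74 in U251MG. In U87TR it had 3.46, 3.88 and 3.57 FPKM, against 0.49, 0.33 and 0.72 in U87MG. All resistant libraries were above all parental ones. The log2 fold change was 1.57 in U251TR (SE 0.12, adjusted p = 5.39e-07) and 1.62 in U87TR (SE 0.12, adjusted p = 1.09e-06), and the difference was -0.06 (SE 0.17, adjusted p = 0.81). The ratio of mean FPKM, without the added 1 FPKM, was 5.58 in U251TR and 7.08 in U87TR.

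The change with resistance differed between U251 and U87 for 22 of the 41 genes (15 more positive in U251, 7 more negative, 53.7%), where 47.6% of all genes tested passed. The largest positive differences (U251 change minus U87 change) were those of LTBP1 (3.02), TGFBR3 (2.4) and SMAD3 (1.72), and the largest negative ones those of NOG (-2.37), BMP1 (-1.91) and BMP2 (-1.35). With 0.1 FPKM added in place of 1, TGFBR3 (4.15) came before LTBP1 (3.43). NOG was below 0.2 FPKM in every U87 library, so its difference rests on U251. The gap in level between the lines was narrower between U87TR and U251TR than between U87MG and U251MG for 25 of the 41 genes (61.0%), where this held for 49.2% of all genes tested. Among the 22 it was narrower for 15 (68.2%), where it was for 48.7% of the 7350 genes whose difference passed. The 41 genes had larger gaps between the parents (median absolute log2 fold change 1.29, against 0.64 for all genes). A larger gap has more room to narrow, and the shares were not matched for it, so they are not a like comparison.

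The parents themselves differed in 34 of the 41 genes, with 17 higher and 17 lower in U87MG than in U251MG (82.9%, where 72.3% of all genes passed, 32.2% higher and 40.1% lower). Of the 41, 22 differed by at least 2-fold, where 31.6% of all genes did. The median absolute log2 fold change was 1.29 for the 41, against 0.64 for all genes. U87MG was higher in GREM1 (6.67, SE 0.10), LTBP1 (5.11, SE 0.11) and ID1 (4.60, SE 0.12) on the log2 scale. It was lower in BMP7 (-4.25, SE 0.14), NOG (-4.19, SE 0.10) and SMAD1 (-2.65, SE 0.12). GREM1 and LTBP2 reached 1 FPKM in the U87 lines alone, and BMP4, BMP7, NOG, CHRD and BMPR1B in the U251 lines alone. Each entered the test through the lines where it was high. All of them count among the 34, and all but BMPR1B among the 22. U87MG had 330 ± 22 FPKM of ID1 against 12.8 ± 2.6 in U251MG (SD, n = 3 each). Among the 41 genes, U87MG was lower in all 5 tested BMP and activin ligands. BMP4 and BMP7 entered the test through the U251 lines alone, and INHBE through those and U87MG replicate 3 (3.56 FPKM). The filter left out INHBA, which was higher in U87MG, at 0.76 FPKM on average against 0.0467 in U251MG. It also left out INHBB, at 0.02 in U87MG against 0.373 in U251MG. Of the 5 tested ligands, BMP6 differed least (-0.33, adjusted p = 0.0211). Its call was lost in 7 settings, among them leaving out U251MG replicate 1 or 3 or U87MG replicate 1 (adjusted p 0.0701 to 0.0879). Of 4 tested ligands outside the 41 (GDF5, GDF11, GDF15 and AMH), 1 was higher in U87MG and 2 were lower. The higher one was GDF5, a BMP-like ligand, at 9.38 FPKM on average in U87MG against 0.347 in U251MG. Its log2 fold change was 2.91 (limma adjusted p = 2.59e-08).

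Other genes of the pathway were taken from lists of extracellular regulators, further ligands and receptors, intracellular regulators and target genes. Of 19 tested extracellular regulators, 7 rose and 4 fell in U251TR, and 2 rose and 6 fell in U87TR. The share that passed was 57.9% in U251TR, near the 53.2% of all genes, and 42.1% in U87TR, where 27.8% of all genes passed. Of the genes named below, BGN reached 1 FPKM in the U251MG libraries alone, DCN in those of U87MG alone and CHRDL1 in those of U251TR and U87MG alone, so each entered the test through the line where it was high. CHRDL1, a chordin-like BMP antagonist, averaged 3.79 ± 0.33 FPKM in U251TR against 0.35 ± 0.19 in U251MG (SD, n = 3 each, log2 fold change 1.83), and fell in U87TR, at 0.21 ± 0.03 against 1.63 ± 0.16 in U87MG (-1.12). BAMBI, a decoy receptor that TGF-beta and BMP signalling induce, rose in U251TR, at 5.95 ± 0.58 FPKM against 1.79 ± 0.13 in U251MG (1.32). It rose in U87TR as well, at 1.46 ± 0.08 FPKM against 0.63 ± 0.026 in U87MG (0.60, adjusted p = 0.000734). THBS1 (thrombospondin 1), which can activate latent TGF-beta, rose in U251TR at a log2 fold change of 1.61, and BGN (biglycan), a proteoglycan that binds TGF-beta, fell by 1.33. In U87TR, LTBP3, a further latent TGF-beta binding protein, averaged 54.3 ± 1.5 FPKM against 178.7 ± 13.4 in U87MG (log2 fold change -1.70, adjusted p = 3.11e-08). RGMB, a BMP co-receptor, fell by 1.25 there, and DCN (decorin), which binds TGF-beta, by 1.11.

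Only 4 of the further ligands and receptors were tested. In U251TR, GDF5, a BMP-like ligand, rose (log2 fold change 2.38), at 6.03 ± 0.69 FPKM against 0.347 ± 0.116 in U251MG (SD, n = 3 each), and in U87TR it fell (-1.16), at 3.53 ± 0.54 against 9.38 ± 2.73 in U87MG. GDF15, a stress-induced cytokine of the family, was higher in U251TR (1.90, adjusted p = 0.0279) and lower in U87TR (-2.23, adjusted p = 0.0248). U251MG replicate 2 was far below the others of its line, at 37.8 FPKM of GDF15 against 323.9 and 308.9, and without it the U251TR log2 fold change was 0.89 (adjusted p = 0.00213). Both GDF15 calls were lost on leaving out single libraries, in U251TR without U251TR replicate 1 or 3 (adjusted p 0.0523 to 0.0695) and in U87TR without any U87 library other than U87MG replicate 3 (0.0502 to 0.0757). AMH fell in U251TR (-1.07), and GDF11 was lower in both resistant lines (-0.29 in U251TR and -0.74 in U87TR). The U251TR call for GDF11 was lost in 4 settings, among them leaving out U251MG replicate 2 or U251TR replicate 2 (adjusted p 0.0664 to 0.0933).

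Of 23 tested intracellular regulators, 4 rose and 9 fell in U251TR, and 7 fell in U87TR. The share that passed, 56.5% in U251TR and 30.4% in U87TR, was near that of all genes (53.2% and 27.8%). PMEPA1, a TGF-beta-induced protein that restrains SMAD2 and SMAD3, fell in both, at 43.9 ± 2 FPKM in U251TR against 141.3 ± 18 in U251MG and at 9.72 ± 0.64 in U87TR against 17.8 ± 2.8 in U87MG (SD, n = 3 each; log2 fold changes -1.66 and -0.80). LDLRAD4, a relative of PMEPA1 with the same known role, rose in U251TR (1.99), at 4.93 ± 0.74 FPKM against 0.563 ± 0.657 in U251MG, and of its 4 libraries at 1 FPKM or more 3 were those of U251TR. USP15, a deubiquitinase of the pathway, fell in U251TR by 0.79, and TGIF2, a SMAD corepressor, fell there by 0.60. NEDD4L, a ubiquitin ligase for SMAD2 and SMAD3, fell most in U87TR, at 10.1 ± 1 FPKM against 26.5 ± 2.4 in U87MG (-1.31, adjusted p = 2.18e-05), and it lies after SMAD4 on chromosome 18. ZFYVE9 (SARA), which anchors SMAD2 and SMAD3 to receptors, fell in U87TR by 0.83, and the ubiquitin ligase SMURF2 by 0.51.

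Of 28 tested genes known as targets of TGF-beta or BMP, 7 rose and 13 fell in U251TR (71.4%, where 53.2% of all genes passed), and 5 rose and 4 fell in U87TR (32.1%, where 27.8% did). The median log2 fold change of this list was -0.30 in U251TR and -0.04 in U87TR. ACTA2 (smooth muscle actin) rose in both, at 21.6 ± 0.6 FPKM in U251TR against 2.99 ± 0.50 in U251MG and at 51.8 ± 5.6 in U87TR against 16.4 ± 1.9 in U87MG (SD, n = 3 each; log2 fold changes 2.51 and 1.60). In U251TR the matrix protein POSTN (periostin) fell (-3.87), at 0.22 ± 0.15 FPKM against 16.8 ± 0.6 in U251MG, and so did the adaptor NEDD9 (-2.55) and the growth factor PDGFB (-2.48). POSTN reached 1 FPKM in the U251MG libraries alone, so it entered the test through the line where it was high.
In U87TR the matrix protein FN1 (fibronectin) rose, at 2114 ± 289 FPKM against 481 ± 165 in U87MG (log2 fold change 2.18, adjusted p = 3.89e-06). COL1A1, a chain of collagen I, fell, at 18.4 ± 2.5 FPKM against 123.7 ± 50.8 in U87MG (-2.62, adjusted p = 0.000143), and the cytokine LIF fell by 1.86. COL1A2, the other chain of collagen I, is given because its value went the opposite way, at 237.2 ± 37.2 FPKM in U87TR against 112.1 ± 34.3 in U87MG (1.11, adjusted p = 0.000653). Both chains also mark fibroblasts, a list of which 3 of 6 tested markers rose and 3 fell in U87TR, with summed levels of 259.1 to 333.1 FPKM in U87TR and 190.8 to 353.1 in U87MG. The part of any other cell type, or of cell division, in these values was not tested.

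**Figure D5:**
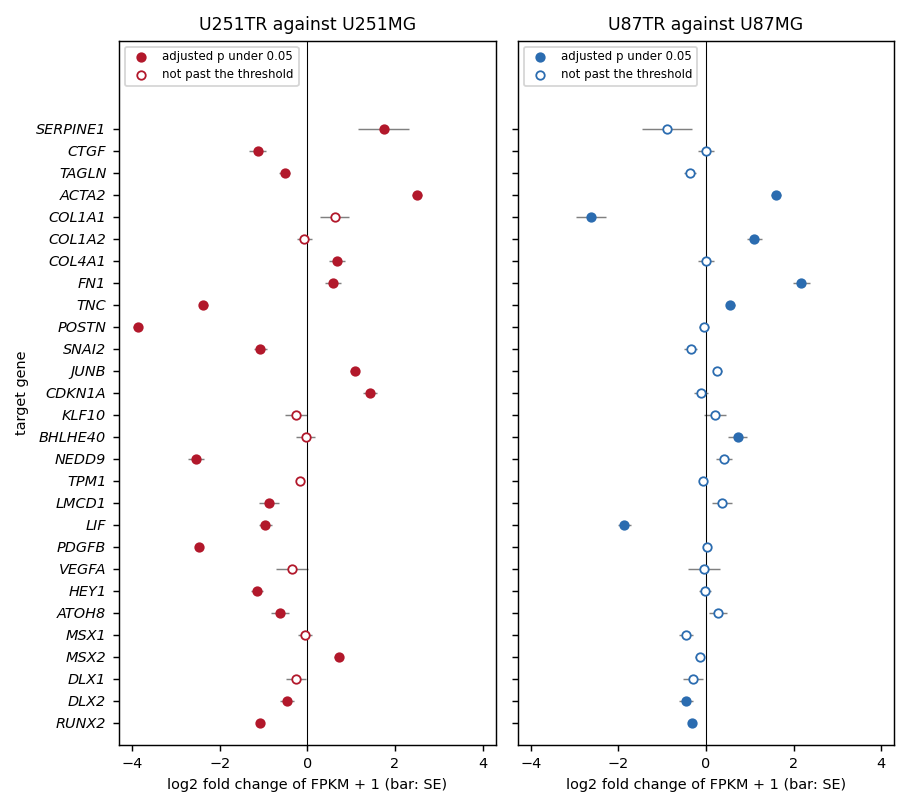
Log2 fold change of each tested target gene in U251TR against U251MG and in U87TR against U87MG, from limma on log2(FPKM + 1), with bars of 1 SE. ACTA2 is on the higher side in both lines (2.51 and 1.60), while FN1 is highest in U87TR (2.18) and POSTN lowest in U251TR (-3.87).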

How the data were processed

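The authors deposited 1 table of gene values with 2 decimals for 12 libraries. No header or label states the unit. FPKM was inferred, because deposited value times mean transcript length summed to 0.911 to 0.976 of what FPKM would give (0.761 to 0.81 with median lengths). The submitters' processing notes name STAR 2.5.2b, RSEM 1.2.31 and build hg19, while the design text gives hg38. For neighbours and chromosomes, gene positions were therefore used for order only. Shared exon sequence was read from GENCODE exons and the windows around gene starts from RefSeq. Whether the counting used the same exons is unknown. Spreadsheet date names (27 rows) were left out of the 31681, which left 31654.

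The 15449 genes that reached 1 FPKM in 3 libraries or more were fitted as log2(FPKM + 1) in limma 3.58.1 (R 4.3.3), with a group mean for each of the 4 lines over all 12 libraries, a variance trend and robust moderation. Tests were two-sided and adjusted over all genes tested by Benjamini-Hochberg, with a threshold of 0.05. The fit was tested on simulated data.

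Values in every library were given for genes that passed with at least 2-fold change and 5 FPKM in the higher group, and for 12 preset genes (ID1 to ID4, TGFB1, TGFB2, TGFBR1, TGFBR2, SMAD2, SMAD3, SMAD4 and SMAD7). Other pathway genes were named up to 4 per list and comparison by size of change. The genes, lists and rules were chosen with earlier results of these data known. Lists were described by counts and medians, with no test. Alternatives were other pseudocounts, filters, scalings and a fold threshold, the replicate block, a fit on 1 comparison's libraries, and leaving out each library in turn. Depth is unknown because no counts are in the table, so no counting interval is given.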

Additional observations from a re-analysis of the deposited data

Results flagged for a closer look

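For 22 of the 41 tested genes the change with resistance differed between U251 and U87 by limma's test of that difference (adjusted p under 0.05), where 47.6% of all genes tested did. The values below are the U251 change minus the U87 change on the log2 scale. The difference was positive for the matrix genes LTBP1 (3.02), LTBP2 (0.65), the BMP ligand BMP6 (1.47) and the BMP antagonists CHRD (1.2) and GREM1 (0.66). It was positive for the receptor genes TGFBR3 (2.4, or 4.15 with 0.1 FPKM added in place of 1), TGFBR1 (1.04), ENG (0.66), BMPR2 (0.63) and ACVR1B (0.47). It was also positive for SMAD3 (1.72), SMAD7 (1.23), SMAD2 (0.81) and SMAD4 (0.68), and for ID1 (1.43). It was negative for NOG (-2.37), BMP1 (-1.91), BMP2 (-1.35), ID3 (-1.24), ID2 (-1.14), TGFB2 (-0.68) and BMPR1A (-0.67). BMPR1A passed in neither line by itself. GREM1 was listed at or near 0 in both U251 lines and CHRD in both U87 lines, and NOG was below 0.2 FPKM in both U87 lines, so these differences rest on the change in 1 line. LTBP2 was below 1 FPKM in both U251 lines, and its difference rests on U87.

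Of these, the differences of ACVR1B, SMAD4, BMPR1A, TGFB2, BMPR2 and ENG were lost in at least 1 setting besides the 2-fold threshold. ACVR1B (adjusted p = 0.0466 as reported) was lost in 13 settings and SMAD4 in 9. BMPR1A was lost without any of 5 single libraries, which were U251MG replicate 1, U251TR replicates 2 and 3, U87MG replicate 2 and U87TR replicate 2 (adjusted p 0.0508 to 0.0555). TGFB2 was lost without U251TR replicate 3 (adjusted p = 0.0507), and BMPR2 and ENG after quantile normalization (adjusted p = 0.0612 and 0.103).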

How the results depend on the processing

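Of the called genes, 17 of 22 in U251TR, 14 of 19 in U87TR, 16 of 22 for the difference between the lines and 33 of 34 between the parents passed in every setting other than the added 2-fold threshold, and no called gene turned its direction. With at least 2-fold change asked as well, 2096 genes passed in U251TR, 802 in U87TR, 2846 for the difference and 4884 between the parents. That left 7 pathway genes higher and 3 lower in U251TR, and 2 higher and 2 lower in U87TR. It left 8 higher and 5 lower for the difference, and 12 higher and 10 lower in U87MG than in U251MG. Of the pathway genes, 11 were lower in U251TR after median-of-ratios scaling and 12 after quantile normalization, where 7 were as deposited. The share of higher calls among all calls in U251TR was 63.2% as deposited, 72.1% rescaled to equal sums, 50.9% with median-of-ratios and 50.5% with quantile normalization, and the median change of all genes was 0.10, 0.20, 0 and 0. In U87TR that share was 38.1%, 46.2%, 45.2% and 48.5%.

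On leaving out 1 library, 7262 to 8961 genes passed in U251TR, 3013 to 5617 in U87TR, 6537 to 8425 for the difference and 10529 to 11505 between the parents. Pathway genes numbered 13 to 16 higher and 6 to 11 lower in U251TR (11 without U251MG replicate 2), and 5 to 9 higher and 10 to 11 lower in U87TR (5 without U87MG replicate 2). With no filter on low values, 12 pathway genes were lower in U87TR. Replicate numbers did not pair the libraries (correlations of deviations from -0.058 to 0.116). With the replicate block 15 genes were higher and 9 lower in U251TR, and 8 higher and 11 lower in U87TR, where TGFB1 no longer passed. The cause of these shifts was not tested. Depth cannot be read from the table, so precision rests on the spread between 3 libraries alone.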
